A study of Mus musculus with 40 samples.

Results

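The MHC class II presentation genes described here are H2-Aa, H2-Ab1, H2-Eb1, H2-DMa, H2-DMb1, Cd74 and Ciita, chosen by name and not by their values, and they make up 7 of the 45706 genes in the deposited expression tables. RNA was sequenced from 40 libraries of flow-sorted mouse cells in 10 groups of 4 libraries. Neutrophils and monocytes came from the colon tumors and the blood of tumor-bearing mice and from the blood of healthy mice, and epithelial and stromal cells came from the tumors and from healthy colon. The tumor-bearing mice were C57Bl6/Sv129, carried Cdx2CreERT2 and Apc fl/fl, and had received a single intraperitoneal dose of Tamoxifen, 25 mg/kg, at an age of 8 to 10 weeks, which switches on a Cre recombinase driven by the Cdx2 promoter, active in colon epithelium, and deletes part of Apc there. The healthy mice were C57Bl6 without transgene or agent, and their age is not given in the sources used here. Strain, transgene, Tamoxifen and tumor therefore cannot be told apart in any comparison of tumor-bearing with healthy mice. Both myeloid gates, Ly6G+ Ly6C-low for neutrophils and Ly6G- Ly6C-high for monocytes, took CD45+ EpCAM- CD11b+ cells that were negative for MHC class II protein at the surface. The paper shows this gating on tumor suspensions, and its list of markers does not separate blood from tumor. Epithelial cells were gated as CD45- EpCAM+, and stromal cells as CD45- EpCAM-. The titles of 1 library of blood neutrophils from tumor-bearing mice and of 3 libraries of healthy blood monocytes join a pair of animal numbers, so these were pools. By the same numbers, the libraries of a group came from different animals, while some animals gave libraries to several groups. The tests treat all libraries as independent, and where at least 2 animals or pools were in both groups compared, the result with the animal as a block is given as well. In such a fit, only the animals or pools in both groups inform the contrast.

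MHC class II molecules are pairs of an alpha and a beta chain that carry peptides from the endosome to the cell surface, where CD4+ T cells read them. H2-Aa and H2-Ab1 encode the alpha and beta chain of the I-A molecule and H2-Eb1 the beta chain of I-E, whose alpha chain gene is inactive in C57BL/6 mice. Cd74 encodes the invariant chain, which fills the groove of a new class II molecule and escorts it to the endosome, and H2-DMa and H2-DMb1 encode the chains of H2-DM, which there exchanges the remnant of the invariant chain for peptide. Ciita encodes the coactivator that switches these genes on at promoters bound by the RFX, NF-Y and CREB factors, constitutively in dendritic cells and B cells and after interferon-gamma in many other cells, gut epithelium included. Monocytes and neutrophils are known for low class II expression at rest.

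H2-Ab1 (ENSMUSG00000073421), H2-Aa (ENSMUSG00000036594) and H2-Eb1 (ENSMUSG00000060586) lie side by side on chromosome 17 of mm10, the build of the deposited tables, at 34257689 to 34269419, 34282744 to 34287823 and 34305867 to 34316674, and the H2-DM genes H2-DMa (ENSMUSG00000037649), at 34119541 to 34139101, and H2-DMb1 (ENSMUSG00000079547), at 34153072 to 34160230, lie next to them. Promoter sequences from RefSeq, on GRCm38.p6, were matched by symbol for 4 of the 7 members, H2-Aa, H2-Eb1, H2-DMa and H2-DMb1. These 3 stretches, from 140 to 31 bases before the start of transcription and 5′ to 3′ on the strand of the gene, are shown because they hold the paired cores through which class II genes are known to be switched on together, and the capitals mark an X box core, GNAAC, and then a Y box core, TGATTGG.
H2-Aa: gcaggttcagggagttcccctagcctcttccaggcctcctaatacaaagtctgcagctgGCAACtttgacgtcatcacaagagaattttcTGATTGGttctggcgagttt
H2-Eb1: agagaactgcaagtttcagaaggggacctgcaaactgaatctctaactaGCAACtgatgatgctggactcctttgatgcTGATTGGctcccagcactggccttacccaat
H2-DMb1: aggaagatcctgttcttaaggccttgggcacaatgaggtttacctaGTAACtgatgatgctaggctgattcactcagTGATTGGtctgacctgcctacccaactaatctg
The first is chr17:34287854-34287963 on the minus strand, the second chr17:34305727-34305836 on the plus strand and the third chr17:34153051-34153160 on the plus strand, and all 3 are promoter sequence, of which the third runs into the GENCODE model of its gene. The X core starts 81, 91 and 94 bases before the start site in H2-Aa, H2-Eb1 and H2-DMb1, and the Y core 50, 61 and 63 bases before it. A window from 250 bases before to 50 bases after the start was searched on both strands for GNAAC followed by TGATTGG that begins 24 to 36 bases after it. Of the 32851 promoter windows in the table, 117 (0.356%) held this pair, and 2568 (7.82%) held TGATTGG alone or in the pair. Of the 8 class II genes with a window, 6 held the pair on their own strand, these 3 and H2-Oa, H2-Ob and H2-Eb2, while the 2 windows of H2-DMa and the window of H2-DMb2 did not hold these letters. The pattern was written down after the sequences had been seen, and a match is a description of letters, not of binding.

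Cd74 (ENSMUSG00000024610, chromosome 18, 60803848 to 60812652) and Ciita (ENSMUSG00000022504, chromosome 16, 10480059 to 10528418) lie outside this cluster. The sources do not state whether strand was used in counting, so reads of Cd74 and of the microRNA gene Mir5107 inside it, of H2-DMa and Brd2, of H2-Eb1 and Gm20513, and of Ciita and Dexi, which overlap, cannot be told apart. H2-DMb1 and its copy H2-DMb2 share 369 of the 1355 stretches of 50 bases that make up the transcripts of H2-DMb1 (27.2%), so its values are uncertain. The other 6 members shared no such stretch with another gene.

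Counts on genes came to 10717873 to 38002939 per library, of which mitochondrial genes took 5.34% to 83.9%, the highest share being in healthy epithelial library 4. Levels are given as RPKM, reads scaled by transcript length and by sequencing depth, which is the scale on which levels of different genes can be set side by side. Over the 60 pairs of libraries within groups, the mean squared difference between counts was at least 21.5 times that of counting error, so no library was a second copy of another. Apc, the targeted gene, was at 5.97 to 6.51 RPKM in tumor epithelial cells and 0.343 to 3.34 RPKM in healthy epithelial cells, but a value per gene does not separate the deleted exon and so does not check the deletion. The summed RPKM of 9 neutrophil markers was 1922 to 20262 in the 12 neutrophil libraries and at most 272 in the 12 monocyte libraries, and that of 8 monocyte markers was 246 to 753 in monocytes and at most 28.3 in neutrophils. Some libraries stood apart from their labels. Tumor neutrophil library 1 had 33.9 RPKM of Epcam, an epithelial surface protein that its gate should lack, and the lowest summed neutrophil markers of the 12, 1922. Tumor stromal libraries 1 and 2 had 51 and 31.5 RPKM of Epcam, which their gate should lack, and the 6 fibroblast markers summed to 5.97 to 24 in the tumor stromal libraries against 355 to 2010 in healthy stromal libraries. Healthy blood neutrophil libraries 1 and 2 held B cell transcripts, with 0.738 and 0.568 RPKM of Ms4a1, which encodes CD20, against 0.00463 and 0.0044 RPKM in libraries 3 and 4. Results that rest on these libraries are given with and without them.

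Cd74 was the most abundant member in all 10 groups, and monocytes had the highest mean of every member (the plot of RPKM by group). Its mean was 171 ± 234 RPKM (SD, n = 4) in blood monocytes of tumor-bearing mice, 149 ± 83.8 in tumor monocytes, 146 ± 85 in healthy blood monocytes, 91.5 ± 58.2 in tumor stromal cells, 62.8 ± 36.8 in healthy stromal cells, 25.5 ± 30.8 in healthy epithelial cells and 21.5 ± 2.94 in tumor neutrophils. Below these came healthy blood neutrophils at 7.32 ± 7.09, tumor epithelial cells at 6.13 ± 4.71 and blood neutrophils of tumor-bearing mice at 1.45 ± 1.2 RPKM. Neighbors in this order overlapped in their 4 values, apart from tumor neutrophils and healthy blood neutrophils, where the lowest of the former was 19.1 and the highest of the latter 14.1 RPKM. Mitochondrial genes took 48.6% to 83.9% of counts in healthy epithelial and 15.6% to 24.9% in healthy stromal libraries, which lowers epithelial RPKM. On TMM-normalized CPM, counts scaled to a common library size, Cd74 was at 11.6, 283, 64.8 and 261 in healthy epithelial cells. It was at 71.7, 133, 286 and 284 in healthy stromal cells. The places of the epithelial groups in the orders of all members are therefore uncertain.

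Among the classical chains, H2-Ab1 ran from 43.3 ± 33 RPKM in healthy blood monocytes through 28.7 ± 9.84 in tumor monocytes, 18.3 ± 25.4 in blood monocytes of tumor-bearing mice, 15.5 ± 6.15 in tumor and 11.6 ± 5.18 in healthy stromal cells, 4.94 ± 5.75 in healthy epithelial cells and 4.18 ± 2.88 in tumor neutrophils down to 1.03 ± 1.33 in healthy blood neutrophils, 0.94 ± 0.812 in tumor epithelial cells, with the lowest, 0.0618 ± 0.0811, in blood neutrophils of tumor-bearing mice. H2-Aa and H2-Eb1 were likewise highest in healthy blood monocytes, at 49.6 ± 36.7 and 10.6 ± 7.7 RPKM, and lowest in tumor-bearing mice's blood neutrophils, at 0.0742 ± 0.0418 and 0.0337 ± 0.0361 RPKM. For these 3 chains no pair of neighboring groups differed beyond its spread. H2-DMa was set apart in monocytes. It was at 18.7 ± 6.74 RPKM in healthy blood monocytes, 18.1 ± 13.6 in blood monocytes of tumor-bearing mice and 13.3 ± 5.55 in tumor monocytes, and the next group, healthy stromal cells, had 1.66 ± 0.384 RPKM with no overlap. In the 3 neutrophil groups its means were 0.0915 to 0.189 RPKM. H2-DMb1 was at most 3.99 ± 1.82 RPKM, in healthy blood monocytes, and Ciita at most 2.51 ± 2.46 RPKM, in blood monocytes of tumor-bearing mice, while Ciita in neutrophils had group means of 0.00358 to 0.0723 RPKM. Of the 63 pairs of neighboring groups over the 7 members, 61 overlapped.

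**Figure D1:**
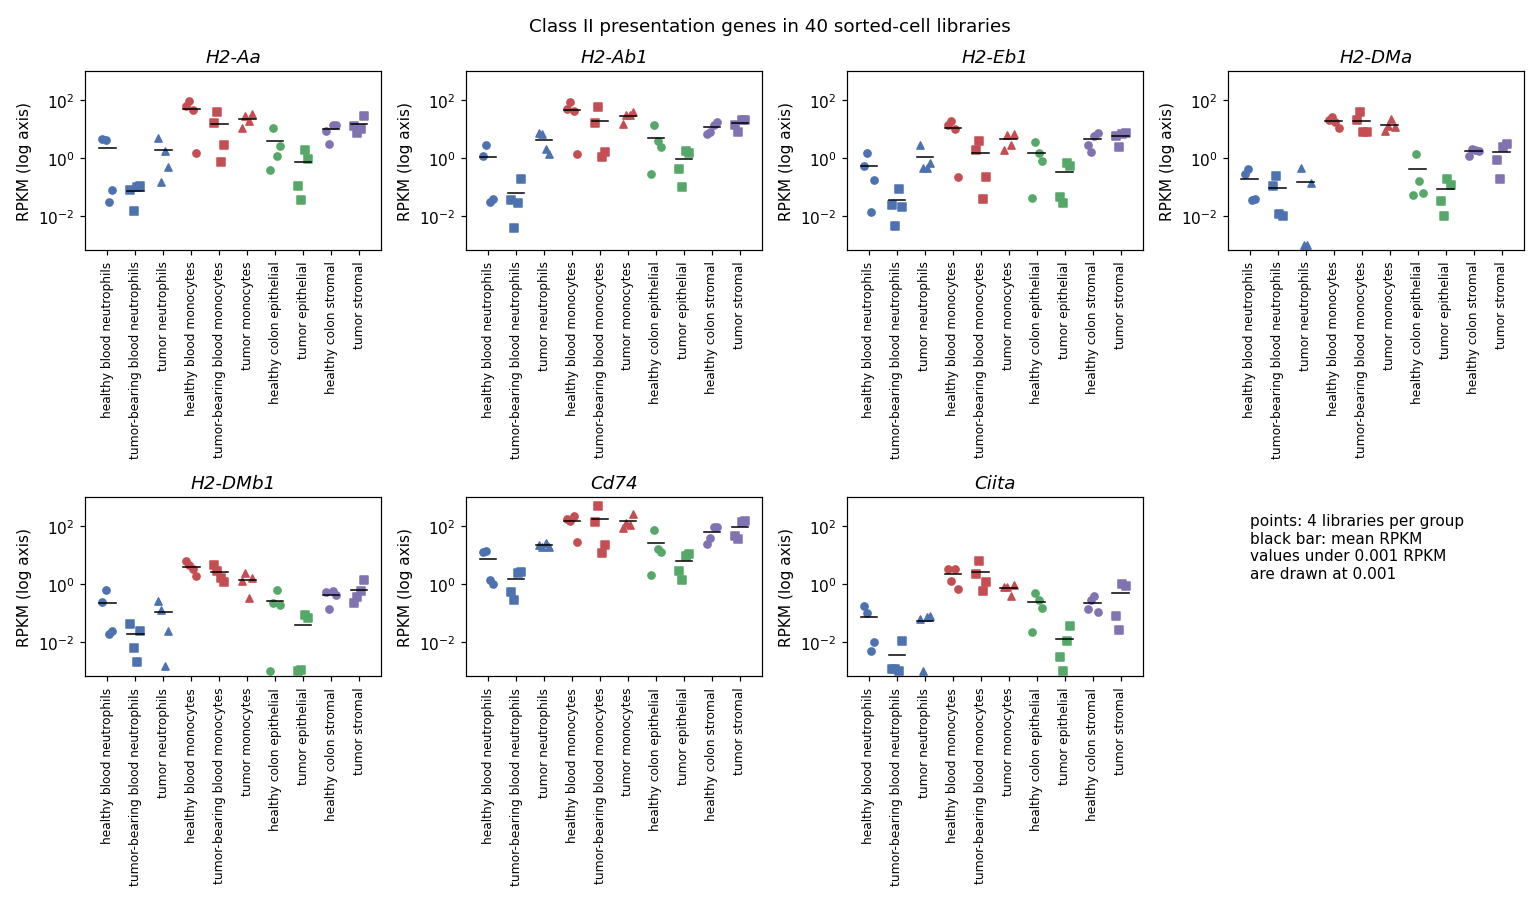
RPKM, on a log axis, of each of the 7 class II genes in 40 libraries, with 1 point per library, a black bar for the mean of 4 libraries, and values under 0.001 drawn at 0.001. The 3 monocyte groups sit highest for H2-DMa, with all 12 libraries at 7.88 RPKM or above, and blood neutrophils of tumor-bearing mice have the lowest mean of every member but H2-DMa.

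In tumor neutrophils, the classical class II chains and the invariant chain were higher than in blood neutrophils of tumor-bearing mice, while H2-DMa was not called. Cd74 measured 21.5, 19.7, 25.6 and 19.1 RPKM in the 4 tumor libraries and 0.551, 0.271, 2.39 and 2.58 RPKM in the 4 blood libraries. H2-Ab1 measured 6.93, 6.38, 2.09 and 1.34 RPKM in tumor against 0.0343, 0.00375, 0.0275 and 0.182 RPKM in blood. Neither gene overlapped between tumor and blood, and Cd74 was as even among the tumor libraries as H2-Ab1 was uneven. H2-Aa measured 4.96, 0.149, 1.65 and 0.491 RPKM in tumor and 0.0748, 0.015, 0.0997 and 0.107 RPKM in blood. H2-Eb1 measured 2.72, 0.449, 0.442 and 0.679 RPKM in tumor and 0.0239, 0.0046, 0.0865 and 0.0198 RPKM in blood. These chains did not overlap between the groups either, but library 1 held most of their tumor signal. H2-DMa was at 0.435, 0, 0 and 0.137 RPKM in tumor and at 0.108, 0.236, 0.0117 and 0.00952 RPKM in blood, with tumor libraries both above and below all blood libraries.

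In edgeR's quasi-likelihood test on the counts, where a gene was called at a Benjamini-Hochberg adjusted p under 0.05 over all genes tested and an absolute log2 fold change above 1.5, 4 of the 5 members that passed the filter on low counts were called, all higher in tumor neutrophils. Of all 13674 genes tested, 16.3% were called and 11.9% called higher. The log2 fold change was 6.25 for H2-Ab1 (SE 1.19, adjusted p = 0.00525), 4.87 for H2-Eb1 (SE 1.08, adjusted p = 0.0114), 4.33 for H2-Aa (SE 1.04, adjusted p = 0.0167) and 3.92 for Cd74 (SE 0.72, adjusted p = 0.00441). For H2-DMa it was 0.44 (SE 1.33, adjusted p = 0.847). The median over the 5 was 4.33, beside 0.11 over all genes tested, and RPKM ranges did not overlap for 4 of the 5, as for 13.6% of all genes tested in the same direction. H2-DMb1 and Ciita failed the filter, with tumor values of at most 0.264 and 0.0761 RPKM. H2-Ab1, H2-Eb1 and H2-Aa passed it through the tumor libraries, with blood counts of at most 19.1, 5.33 and 12.9. The share called and the median therefore lean to members that are high in tumor. The calls for H2-Ab1, H2-Eb1 and Cd74 were kept with each of the 8 libraries left out in turn, with adjusted p of at most 0.0251, 0.0496 and 0.0173, and H2-Aa lost its call without blood library 1 or 2 (adjusted p up to 0.0542).

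Markers of other cells moved with this result. Epcam was at 33.9, 5.91, 8.94 and 2.6 RPKM in the tumor neutrophil libraries and at most 0.027 RPKM in blood, and the 8 epithelial markers summed to 144, 26, 33.7 and 11.6 RPKM against at most 0.205 RPKM, so that all 4 tumor libraries held epithelial transcripts. Without tumor neutrophil library 1, which held the most Epcam, H2-Aa had a log2 fold change of 3.31 and H2-Eb1 of 4.13, and the number of members called was 4. In the sorted tumor epithelial cells themselves, Cd74 was at 1.38 to 10.9 RPKM, below all 4 tumor neutrophil libraries. The higher mitochondrial share of the epithelial libraries lowers their values on this scale. The other called genes overlapped with tumor neutrophils. In tumor epithelial cells, H2-Aa was at 0.035 to 1.92, H2-Ab1 at 0.0978 to 1.74 and H2-Eb1 at 0.0284 to 0.677 RPKM. The part of epithelial transcripts in the result was not tested. The 8 monocyte markers summed to 5.94 to 20.8 RPKM in tumor neutrophils and to 22 to 28.3 RPKM in the blood neutrophils, so they were not higher in tumor, and Ccr2, a defining receptor of monocytes, was at 0.00563 to 0.491 RPKM in tumor neutrophils against 23.9 to 49.5 RPKM in tumor monocytes. The 8 macrophage markers summed to 3.18 to 12.3 RPKM in tumor and 2.7 to 7.94 RPKM in blood neutrophils. These sums overlapped, but 4 of the 8 were higher in all tumor than in all blood libraries. They were the complement genes C1qa, at 0.12 to 0.834 RPKM against 0, C1qb, at 0.261 to 2.65 against at most 5.91e-05 RPKM, and C1qc, at 0.0815 to 1.32 against at most 0.00825 RPKM, and the mannose receptor gene Mrc1, at 0.0764 to 0.543 against at most 0.00713 RPKM. Their part in the result was not tested. The 9 dendritic cell markers summed to 3.76 to 9.39 RPKM in tumor and 2.7 to 4.52 RPKM in blood, Itgax being most of the tumor sums at 2.45 to 7.22 RPKM, and Cd209a was at most 0.00131 RPKM in tumor neutrophils. The 7 B cell markers, at 0.183 to 3.33 RPKM in tumor, and the 6 T cell markers, at 0.112 to 0.948 RPKM, were not above their sums in blood, 1.8 to 6.68 and 0.192 to 3.97 RPKM. In bulk samples such as these, a small share of cells with much class II RNA and a low level in many cells cannot be told apart.

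In monocytes, no member was called between tumor and blood of tumor-bearing mice, where 11.7% of all 15280 genes tested were called. The gate took cells negative for surface class II protein, so cells that carried it were not sequenced as monocytes. All 7 passed the filter, 1 of them had an unadjusted p under 0.05, and DESeq2 called 1. H2-Aa measured 11.1, 27, 18.1 and 32.4 RPKM in the tumor libraries and 16.5, 36.7, 0.709 and 2.82 RPKM in the blood libraries. Cd74 measured 85.4, 133, 106 and 271 RPKM in tumor and 138, 512, 11.6 and 22.2 RPKM in blood. The tumor libraries thus lay inside the range of the blood libraries for both genes, which spanned more than the tumor libraries did. The log2 fold change was 0.88 for H2-Aa (SE 0.88), 0.89 for H2-Ab1 (SE 0.96), 1.79 for H2-Eb1 (SE 0.99), 0.02 for Cd74 (SE 0.92), -0.17 for H2-DMa (SE 0.50) and -0.66 for H2-DMb1 (SE 0.59), with adjusted p of 0.252 to 0.989. Ciita measured 0.802, 0.793, 0.392 and 0.912 RPKM in tumor against 2.2, 6.05, 0.584 and 1.18 RPKM in blood, where 1 blood library lay inside the tumor range. Its log2 fold change was -1.56 (SE 0.62, adjusted p = 0.117), and it was called, at -1.90 with an adjusted p of 0.0453, without blood library 3. The median over the 7 members was 0.02, beside -0.03 over all genes tested.

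The blood monocyte libraries varied most in the genes of the class II molecule itself (the plot of the 12 monocyte libraries). In healthy blood, H2-Aa was at 61.6, 89.4, 46 and 1.52 RPKM, H2-Ab1 at 47.4, 81.9, 42.5 and 1.31 RPKM, and H2-Eb1 at 13.9, 18.3, 10.2 and 0.21 RPKM, with library 4 low for all 3. H2-DMa was at 20.9, 26.6, 16.7 and 10.6 RPKM in the same libraries and H2-DMb1 at 6.13, 4.65, 3.32 and 1.87 RPKM, so library 4 was lowest for them too but by less. In blood of tumor-bearing mice, libraries 3 and 4 were the low ones, with H2-Eb1 at 1.79, 3.83, 0.0384 and 0.217 RPKM and H2-DMa at 20, 36.6, 7.88 and 8.08 RPKM. Taking H2-Aa as a percentage of Cd74, healthy blood monocytes ran from 5.47% to 58.6%, blood monocytes of tumor-bearing mice from 6.09% to 12.7% and tumor monocytes from 12% to 20.2%, so that this ratio was uneven in healthy blood only, while in tumor-bearing blood both genes were low together. Markers of monocytes and of other cells differed between these libraries too. The 8 monocyte markers summed to 419 to 644 RPKM in healthy blood and 560 to 753 RPKM in blood of tumor-bearing mice, but in the latter they went in both directions. Csf1r, the receptor for the macrophage growth factor, was at 106, 167, 48.9 and 50.3 RPKM and Cx3cr1 at 13.8, 16.3, 6.22 and 7.21 RPKM, lower in libraries 3 and 4, as Ly6c2 and Ms4a4c were. Chil3, a secreted protein of classical monocytes, was at 44.1, 62.7, 286 and 143 RPKM, higher in the same libraries. Of the dendritic cell list, Cd209a, which is also found on some monocytes, was at 1.95, 6.62, 3.19 and 0.538 RPKM in healthy blood and 0.473, 0.272, 0.0426 and 0.139 RPKM in blood of tumor-bearing mice, lowest where the classical chains were lowest. The whole list summed to 2.52 to 11.2 RPKM in healthy blood, with 2.52 in library 4, and to 2.44 to 3.84 RPKM in the other blood group. The 7 B cell markers, most of them Ighm, summed to 61.9, 65.3, 17.6 and 22.3 RPKM and the 8 macrophage markers to 77.7, 43.2, 35.4 and 24.4 RPKM in blood of tumor-bearing mice, lower in libraries 3 and 4. In healthy blood the B cell sum was 44.5, 38.3, 58.5 and 51.7 RPKM, not lowest in library 4, and the macrophage sum was 33.6, 33.8, 32.6 and 15.2 RPKM. The part of these lists in the class II values was not tested.

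**Figure D2:**
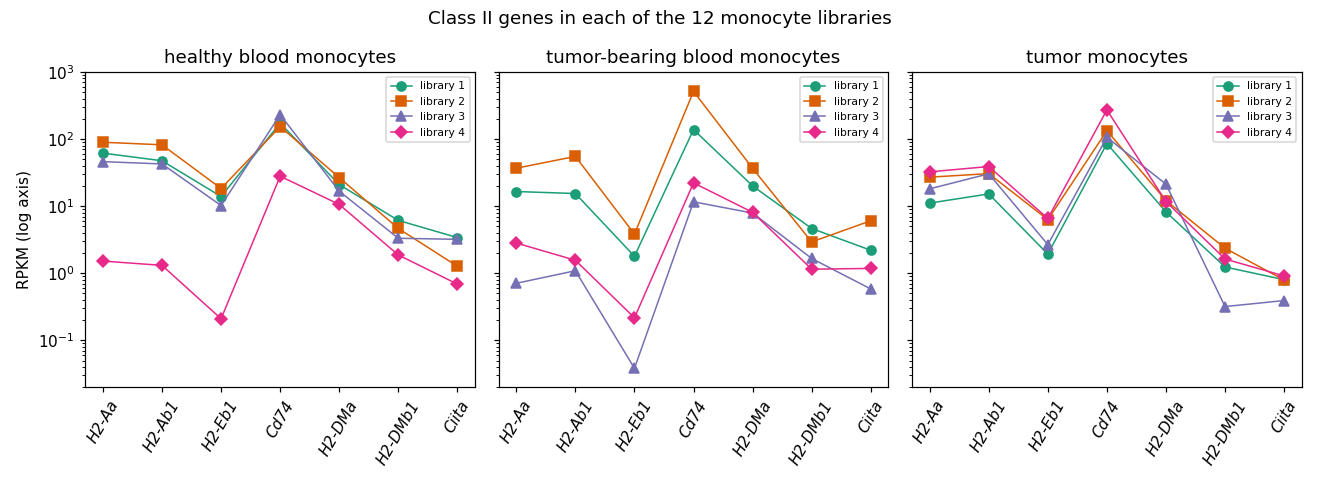
RPKM, on a log axis, of the 7 class II genes in the 4 libraries of healthy blood monocytes, blood monocytes of tumor-bearing mice and tumor monocytes, with 1 line per library. Library 4 of healthy blood and libraries 3 and 4 of tumor-bearing blood are low for H2-Aa, H2-Ab1, H2-Eb1 and Cd74 and less so for H2-DMa, and the 4 tumor libraries lie close together for the first 4 genes.

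An interaction over 16 libraries tested if monocytes and neutrophils differed in their tumor-to-blood change. The one call was for Ciita, at -5.32 on the log2 scale (SE 1.46, adjusted p = 0.0494), where 3.95% of the 17465 genes tested were called and 2.73% called lower. Ciita had failed the filter in neutrophils, with counts of 17, 0.0124, 23.7 and 24.7 in tumor and 0.447, 0.369, 0.245 and 3.67 in blood, and passed here through the monocytes, so no difference between the cell types is read from this value. The call was lost with any library but tumor neutrophil library 2, blood neutrophil library 4 and blood monocyte library 3 left out (adjusted p up to 0.115), tumor neutrophil library 1 among them. The difference was -5.22 for H2-Ab1 (SE 1.54, adjusted p = 0.0627), -3.79 for Cd74 (adjusted p = 0.0973), -3.31 for H2-Aa (adjusted p = 0.168), -2.97 for H2-Eb1 (adjusted p = 0.262), -2.93 for H2-DMb1 (adjusted p = 0.246) and -0.46 for H2-DMa (adjusted p = 0.881), of which H2-DMb1 had also failed the filter in neutrophils. The rise of the classical chains in neutrophils and the lack of a call in monocytes are therefore not shown to differ at this threshold.

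**Figure D3:**
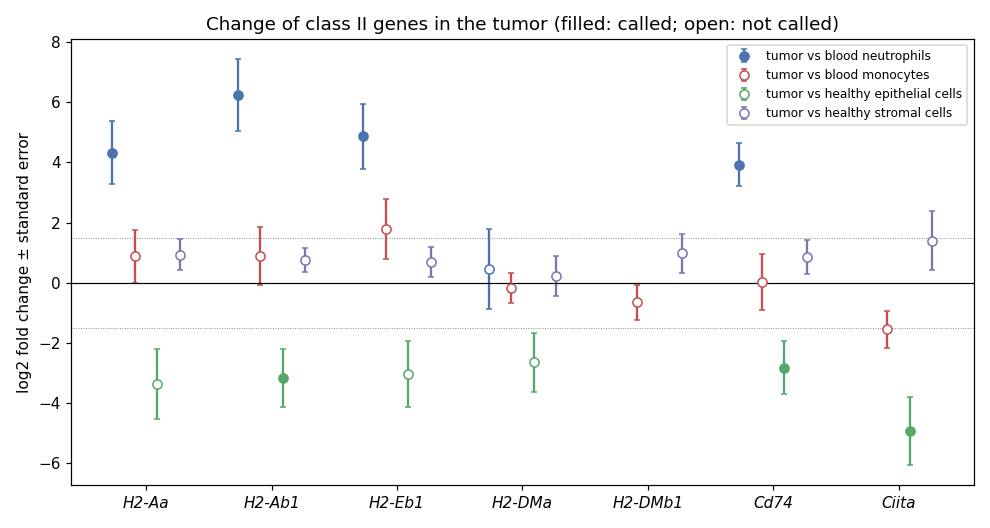
Log2 fold change with its standard error, from edgeR, of each class II gene that passed the filter, in tumor against blood neutrophils, tumor against blood monocytes, tumor against healthy epithelial cells and tumor against healthy stromal cells, with filled points for called genes and dotted lines at 1.5 and -1.5. Neutrophils lie above 3.9 for the 4 called genes, epithelial cells lie at -2.66 or below for all 6 tested, and monocytes and stromal cells have no filled point.

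Within the tumor, H2-DMa, H2-Aa, Cd74 and H2-Ab1 were higher in monocytes than in neutrophils, and the gap was widest for H2-DMa. H2-DMa measured 8.19, 12.1, 21.2 and 11.7 RPKM in tumor monocytes against 0.435, 0, 0 and 0.137 RPKM in tumor neutrophils. Set against Cd74 in the same library, it came to 4.34% to 20% in monocytes and 0% to 2.02% in neutrophils, without overlap. Tumor neutrophils thus held the invariant chain with almost none of this H2-DM chain, and H2-DMb1 was at 0.00146 to 0.264 RPKM in them. The share of H2-DMa was also low in tumor epithelial cells, at 0.721% to 1.94%, and in tumor stromal cells, at 0.528% to 2%. A low share was therefore not particular to neutrophils. Of the 7 members, 4 were called higher in monocytes, where 7.45% of all 15003 genes tested were called and 2.80% called higher. The log2 fold change was 6.37 for H2-DMa (SE 1.19, adjusted p = 0.00978), 3.37 for H2-Aa (SE 0.78, adjusted p = 0.0240), 2.22 for Cd74 (SE 0.42, adjusted p = 0.0106) and 2.19 for H2-Ab1 (SE 0.60, adjusted p = 0.0483). Ciita, at 3.37 (adjusted p = 0.0658), H2-DMb1, at 3.21 (adjusted p = 0.133), and H2-Eb1, at 1.69 (adjusted p = 0.173), were not called. The RPKM ranges of 6 of the 7 did not overlap, as for 15.2% of the genes tested in this direction, and the median was 3.21 against -0.06 over all genes. H2-DMa and Cd74 kept their calls without any 1 of the 8 libraries (adjusted p of at most 0.0355 and 0.0462), H2-Ab1 lost its call without any but tumor neutrophil library 2 (adjusted p up to 0.147), and H2-Aa lost it without tumor neutrophil library 3 or 4 or tumor monocyte library 2, 3 or 4 (adjusted p up to 0.0697). By their titles 3 animals were in both groups, and with the animal as a block 3 members were called, H2-Ab1 losing its call (adjusted p = 0.0681).

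In healthy blood, all 7 members were called higher in monocytes than in neutrophils, in a comparison in which 37.1% of all 15033 genes tested were called and 20.4% called higher. H2-DMa was at 20.9, 26.6, 16.7 and 10.6 RPKM in monocytes and 0.284, 0.399, 0.0341 and 0.039 RPKM in neutrophils, and its log2 fold change was 5.93 (SE 0.71, adjusted p = 1.3e-04). Cd74 was at 172, 153, 230 and 27.9 RPKM against 12.8, 14.1, 1.37 and 1.04 RPKM, with 3.61 (SE 0.89, adjusted p = 0.00755). Both genes separated the cell types without overlap. The others had log2 fold changes of 3.47 for H2-DMb1, 3.63 for H2-Eb1, 3.85 for H2-Aa, 4.17 for Ciita and 4.75 for H2-Ab1, with adjusted p of 0.00504 to 0.0483, and a median of 3.85 against 0.07 over all genes. RPKM ranges did not overlap for 4 of the 7 members, as for 38.9% of the genes tested in this direction. H2-Aa lost its call without any library but monocyte library 4 and H2-Eb1 without any but neutrophil library 2 and monocyte library 4, and without neutrophil libraries 1 and 2, which held B cell transcripts, all 7 were called. By the titles, monocyte library 3 pooled the animals of neutrophil libraries 1 and 2, and monocyte library 4 those of neutrophil libraries 3 and 4, so that the monocyte library lowest in H2-Aa and the neutrophil libraries low in it came from the same animals. With the animals as a block 6 members were called, H2-Eb1 losing its call (adjusted p = 0.0710).

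In blood, no member was called between tumor-bearing and healthy mice. In neutrophils 3 members passed the filter, 2 of them had an unadjusted p under 0.05, DESeq2 called 1, and 4.01% of all 13360 genes tested were called. H2-Aa measured 4.33, 4.16, 0.0296 and 0.0755 RPKM in healthy mice and 0.0748, 0.015, 0.0997 and 0.107 RPKM in tumor-bearing mice, so that only healthy libraries 1 and 2 stood above the rest. Its log2 fold change was -4.64 (SE 1.37, adjusted p = 0.0747), and that of Cd74 was -2.14 (SE 0.93, adjusted p = 0.210). Those 2 libraries were higher in some B cell transcripts. Besides Ms4a1, Cd79a was at 0.688 and 0.96 RPKM in them and at 0.0682 and 0.0198 RPKM in libraries 3 and 4, and Pax5 at 0.53 and 0.432 against 0.0129 and 0.0123 RPKM, although the sum of the 7 B cell markers, most of it Ighm, was 16 to 26.2 RPKM in all 4. Lists of other cells set them apart too. The T cell markers summed to 2.32 and 4.15 against 0.632 and 0.605 RPKM. Endothelial markers summed to 1.94 and 2.31 against 0.603 and 0.494 RPKM, while the sums of dendritic cell markers overlapped. The part of these transcripts in the class II values was not tested. Without libraries 1 and 2, the log2 fold changes were 0.45 for H2-Aa, 0.21 for Cd74 and 1.05 for H2-DMa, which had been at -0.95 (SE 0.96) with all libraries. Without healthy library 4 alone, H2-Aa was called (adjusted p = 0.0448).

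In blood monocytes all 7 passed the filter, none had an unadjusted p under 0.05, and neither edgeR, limma-voom nor DESeq2 called any, with 0.209% of all 15313 genes tested called. H2-Eb1 had the largest difference, at 13.9, 18.3, 10.2 and 0.21 RPKM in healthy and 1.79, 3.83, 0.0384 and 0.217 RPKM in tumor-bearing mice, where only healthy library 4 lay among the tumor-bearing values. Its log2 fold change was -2.72 (SE 1.25, adjusted p = 0.514). The others ran from -1.68 for H2-Aa (SE 1.16) and -1.11 for H2-Ab1 (SE 1.22) through -0.52 for H2-DMb1 (SE 0.46) and 0.06 for H2-DMa (SE 0.48) to 0.38 for both Cd74 (SE 1.00) and Ciita (SE 0.69). With standard errors above 1 for the classical chains, changes of several-fold were not detectable.

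In epithelial cells, Ciita, H2-Ab1 and Cd74 were lower in tumor than in healthy colon, and Ciita had the largest difference. On the scale of TMM-normalized CPM, counts scaled to a common library size, used here because mitochondrial reads lower the RPKM of healthy library 4, Ciita was at 0.351, 5.99, 3.40 and 9.37 in healthy and 0.0449, 0, 0.0963 and 0.400 in tumor epithelial cells. Cd74 was at 9.08, 228, 52.1 and 212 in healthy and 10.3, 5.04, 22.3 and 32.3 in tumor cells. H2-Ab1 was at 1.52, 50.1, 14 and 47.5 against 1.71, 0.427, 4.82 and 5.27. Healthy library 1 was as low as the tumor libraries, and healthy libraries 2 to 4 were above every tumor library, in all 3 genes (the plot of epithelial libraries). Of the 6 members that passed the filter, 3 were called, all lower in tumor, where 15.4% of all 16085 genes tested were called and 7.88% called lower. The log2 fold change was -4.95 for Ciita (SE 1.13, adjusted p = 0.00980), -3.18 for H2-Ab1 (SE 0.98, adjusted p = 0.0404) and -2.83 for Cd74 (SE 0.88, adjusted p = 0.0420). H2-Aa, at -3.37 (SE 1.17, adjusted p = 0.0645), H2-Eb1, at -3.05 (SE 1.11, adjusted p = 0.0755), and H2-DMa, at -2.66 (SE 0.99, adjusted p = 0.0797), were not called, and H2-DMb1 failed the filter. The median over the 6 was -3.11, against -0.01 over all genes. Tumor counts of Ciita were 0.921, 0.0099, 4.98 and 18.8, so it passed the filter mainly through the healthy libraries. The size of its change is therefore uncertain. The Ciita call was kept without any 1 of the 8 libraries (adjusted p of at most 0.0363), while those of H2-Ab1 and Cd74 were lost without healthy library 2 or 4 or any 1 of the tumor libraries (adjusted p up to 0.114 and 0.119). Without healthy library 1, all 7 members were called.

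**Figure D4:**
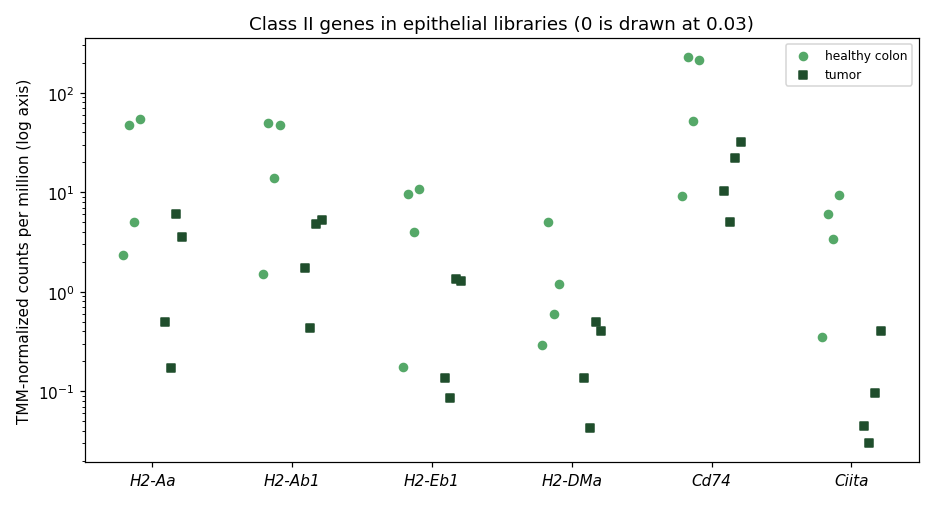
TMM-normalized CPM, on a log axis with 0 drawn at 0.03, of the 6 class II genes that passed the filter in the 4 healthy and 4 tumor epithelial libraries, with 1 point per library. For H2-Ab1, Cd74 and Ciita, 3 healthy libraries lie above all 4 tumor libraries and healthy library 1 lies among them.

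Transcripts of blood cells were low in these epithelial libraries but not absent. Ptprc, which encodes CD45, was at 0.078, 0.0426, 0.0317 and 0.176 RPKM in healthy and 0.0452, 0.0498, 0.144 and 0.0898 RPKM in tumor epithelial cells, which overlapped. Of the healthy libraries with much class II RNA, library 2 had 0.0426 RPKM of Ptprc and 0.0708 RPKM of summed B cell markers, while library 4 had the highest values of all 8, 0.176 and 3.4 RPKM, on a scale that its mitochondrial reads lower. All 9 dendritic cell markers were under 1 RPKM in all 8 libraries, and they summed to 0.0885 to 0.393 RPKM in healthy and 0.112 to 0.403 RPKM in tumor cells. The 8 macrophage markers summed to 0.68 to 3.87 RPKM in healthy, most of it Mertk in libraries 1 to 3, and 0.925 to 2.48 RPKM in tumor cells. The 9 neutrophil markers summed to 11.7, 9.74, 12.5 and 6.76 RPKM in healthy and 1.6 to 5.82 RPKM in tumor cells, without overlap and in the direction of the class II genes. Most of this was Retnlg in healthy libraries 1 to 3, at 9.54 to 12.3 RPKM, while Ly6g, which defines neutrophils, was at most 0.141 RPKM in the 8 libraries. The 8 monocyte markers went the other way, at 0.536 to 2.16 RPKM in healthy and 9.16 to 26.1 RPKM in tumor cells, most of the latter Fn1, the fibronectin gene. The part of these transcripts in the class II values was not tested. The 8 epithelial markers summed to 67.6 to 334 RPKM in healthy and 141 to 341 RPKM in tumor cells.

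In stromal cells, no member was called between tumor and healthy colon, and none had an unadjusted p under 0.05, while 8.40% of all 19081 genes tested were called. Cd74 was at 24, 38.7, 95.6 and 92.9 RPKM in healthy and 47.1, 35.5, 139 and 145 RPKM in tumor stromal cells, and H2-Ab1 at 6.87, 7.69, 13.9 and 17.7 against 13.3, 7.76, 20.7 and 20.1 RPKM. Both overlapped. The 7 log2 fold changes were all positive, from 0.21 for H2-DMa (SE 0.66) to 1.40 for Ciita (SE 0.97), with a median of 0.86 against 0.03 over all genes and adjusted p of 0.271 to 0.880. Cells of the compared groups differed by other markers too. Ptprc was at 0.586, 0.302, 7.29 and 10.8 RPKM in tumor and 0.234 to 1.12 RPKM in healthy stromal cells, and neutrophil markers summed to 1570 and 532 RPKM in tumor libraries 3 and 4 against at most 45.4 RPKM in healthy cells. B cell markers summed to 1.94 to 53.5 RPKM in tumor and 3.01 to 37.4 RPKM in healthy cells. Their part in the class II values was not tested. Without tumor libraries 1 and 2, which held Epcam, the tumor libraries with the most Ptprc were left, and Ciita was called higher, at 2.31 (adjusted p = 0.0486).

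Between healthy epithelial and stromal cells, none of the 7 was called or had an unadjusted p under 0.05, in a comparison in which 30.9% of all 18468 genes tested were called. The log2 fold change of epithelial against stromal cells was -0.20 for H2-Aa, -0.25 for H2-Ab1, -0.32 for Cd74, -0.55 for H2-Eb1, 0.52 for H2-DMb1 and 1.16 for Ciita. For H2-DMa it was -1.43 (SE 0.78, adjusted p = 0.179), and without healthy epithelial library 2 it was called at -2.84 (adjusted p = 0.00804). In the tumor, Cd74 was at 2.85, 1.38, 9.41 and 10.9 RPKM in epithelial cells and 47.1, 35.5, 139 and 145 RPKM in stromal cells, and RPKM ranges did not overlap, epithelial cells being lower, for 6 of the 7, as for 4.32% of the genes tested in this direction. The log2 fold changes were -4.01 for Cd74 (SE 0.70, adjusted p = 0.0588), -4.17 for H2-Ab1 (SE 0.71, adjusted p = 0.0588) and -4.11 to -5.18 for the other 5, with a median of -4.25 against 0.02 over all genes. All 7 had an unadjusted p under 0.05 and none was called, in a comparison that called 0.0294% of all 16985 genes tested. Without tumor stromal libraries 1 and 2, all 7 were called, and DESeq2 called all 7 with them. Tumor stromal libraries 3 and 4, which were left, had Ptprc at 7.29 and 10.8 RPKM and neutrophil markers summing to 1570 and 532 RPKM. In libraries 1 and 2 Ptprc was at 0.586 and 0.302 RPKM. The part of these transcripts in the class II values was not tested. By the titles 2 animals were in both groups, and with the animal as a block all 7 were called and 13.1% of all genes. The contrast in that fit rests on these 2 animals, which gave tumor stromal libraries 3 and 4, while libraries 1 and 2 came from others.

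The change from healthy colon to tumor differed between epithelial and stromal cells for 3 members in an interaction over 16 libraries, where 14.1% of all 20901 genes tested were called and 7.25% called lower. The difference was -6.34 on the log2 scale for Ciita (SE 1.59, adjusted p = 0.0139), -3.90 for H2-Ab1 (SE 1.14, adjusted p = 0.0297) and -3.67 for Cd74 (SE 1.14, adjusted p = 0.0405), each with the change in epithelial cells below that in stromal cells. All 7 had an unadjusted p under 0.05, with H2-Aa at -4.26 (adjusted p = 0.0515), H2-DMb1 at -4.63 (adjusted p = 0.0567), H2-Eb1 at -3.68 (adjusted p = 0.0642) and H2-DMa at -2.86 (adjusted p = 0.133), of which H2-DMb1 had failed the filter in epithelial cells. Without tumor stromal libraries 1 and 2, which leaves those with the most Ptprc, the same 3 were called. Ciita kept its call without any 1 of the 16 libraries (adjusted p of at most 0.0330). H2-Ab1 lost its call without healthy epithelial library 2 or 4, tumor epithelial library 1 or healthy stromal library 1, 2 or 3, and Cd74 without these and without tumor epithelial library 2 or 3 or tumor stromal library 3 or 4 (adjusted p up to 0.0641 and 0.0850).

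The genes that act around the class II molecule were counted as 6 lists. The 7 genes of the promoter complex that Ciita joins, Rfx5, Rfxap, Rfxank, Nfya, Nfyb, Nfyc and Creb1, all passed the filter and none was called in any of the 12 comparisons. Of the 6 genes on the route from interferon-gamma to Ciita, all tested in every comparison, 1 was called lower in tumor than in healthy epithelial cells, the receptor chain Ifngr1 (log2 fold change -1.62, adjusted p = 0.00525). Ifngr1 was at 2.64, 1.26, 4.93 and 3.8 RPKM in tumor against 9.04, 6.22, 7.04 and 1.9 RPKM in healthy epithelial cells, where healthy library 4, with its high mitochondrial share, lay among the tumor values on this scale. In tumor stromal cells 1 was higher, the receptor chain Ifngr2 (1.99, adjusted p = 0.00531), and in tumor monocytes 1 was higher than in blood, the kinase Jak2 (2.05, adjusted p = 6.7e-04). None was called in tumor against blood neutrophils.

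Of the 6 genes of lysosomal processing, 2 were called lower and 2 higher in tumor than in healthy epithelial cells. The lower ones were Ctss, which encodes cathepsin S, the protease that trims the invariant chain in antigen-presenting cells (-3.77, adjusted p = 0.00231), and Ifi30, a lysosomal thiol reductase (-1.81, adjusted p = 0.00401), and the higher ones were the proteases Ctsl (2.72, adjusted p = 4.1e-05) and Ctsd (2.04, adjusted p = 1.1e-04). Ctss was at 3.83, 13.1, 12.8 and 3.47 RPKM in healthy and 0.489, 0.148, 2.69 and 0.905 RPKM in tumor epithelial cells, without overlap. In stromal cells Ctss was called in the other direction (2.86, adjusted p = 0.0335), and the interaction for it was -6.61 (adjusted p = 7.5e-04). In tumor neutrophils 1 of the 6 was called against blood, Ctsb, a lysosomal protease, which was higher (1.96, adjusted p = 0.00516), and in tumor monocytes 1, Ctsl, which was higher (2.16, adjusted p = 0.00159). Tumor monocytes exceeded tumor neutrophils in 3 of the 6, Ifi30, Ctss and Lgmn, at 5.13, 3.99 and 3.50, and were below them in Ctsd, at -1.65.

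The ubiquitin ligase March1, which lowers surface class II and CD86, was at 0.559, 0.957, 0.917 and 1.18 RPKM in tumor neutrophils and 3.07, 5.2, 5.96 and 2.92 RPKM in blood neutrophils of tumor-bearing mice (-2.14, adjusted p = 0.00827), and it was 1 of the 2 ligases called there. Neither ligase was called in monocytes between tumor and blood, in epithelial cells or in stromal cells. Of the 3 costimulators, all were higher in tumor than in blood monocytes, Cd80 at 5.51 (adjusted p = 2.4e-05), Cd86 at 3.28 (adjusted p = 2.0e-05) and Cd40 at 1.95 (adjusted p = 0.0311). No class II member was called there, but cells with class II protein at the surface had been gated out. This contrast therefore cannot be told apart from the gate. In neutrophils, 1 of the 2 tested was higher in tumor, Cd80 (4.00, adjusted p = 0.00214), at 15.2, 58.4, 50.9 and 39.9 RPKM against 2, 1.69, 4.22 and 3.7 RPKM. Of the 5 other class II chains, none passed the filter in neutrophils between tumor and blood, and of the 4 tested in monocytes and in stromal cells none was called between tumor and blood or healthy colon. H2-Ob, a chain of the H2-DM inhibitor H2-DO, was lower in healthy epithelial than in healthy stromal cells (-5.61, adjusted p = 5.2e-04). H2-Ea-ps, the inactive I-E alpha chain, was at most 0.123 RPKM in all 40 libraries.

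Across the 40 libraries, the members fell into a pair of blocks by Pearson's r of log2(RPKM + 1), given as a description, since the libraries share cell types, groups and depth (the plot of likeness between members). H2-Aa, H2-Ab1, H2-Eb1 and Cd74 had r of 0.85 to 0.95 with each other, and H2-DMa, H2-DMb1 and Ciita had r of 0.86 to 0.89. Between the blocks r was 0.58 to 0.77, and the median of all 21 pairs was 0.76. Among 4899 genes with a group mean of at least 5 RPKM, those most like the mean of the 7 scaled members over the 40 libraries were Mir5107, with r of 0.93, which lies within Cd74 and can share its reads, then Irf4, a transcription factor of lymphocytes and antigen-presenting cells, at 0.89, and Sdc3 and Plekho1 at 0.85, Prcp and Irf8 at 0.84, and Rgs10 and Dusp3 at 0.83. Irf8 encodes a transcription factor of monocytes and dendritic cells. All 8 had their highest group mean in monocytes.

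**Figure D5:**
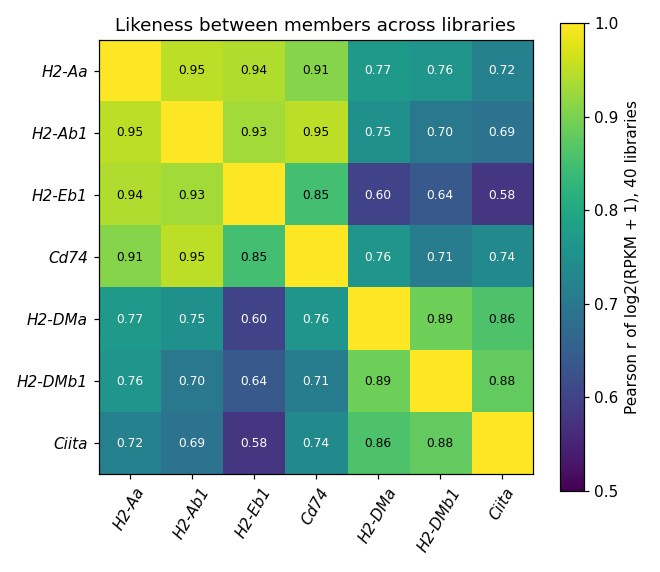
Pearson's r between each pair of class II genes over 40 libraries, on log2(RPKM + 1), as a color scale from 0.5 to 1 with the value printed in each cell. H2-Aa, H2-Ab1, H2-Eb1 and Cd74 form a block at 0.85 to 0.95, H2-DMa, H2-DMb1 and Ciita form a block at 0.86 to 0.89, and the lowest value, 0.58, is between H2-Eb1 and Ciita.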

How the data were processed

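RNA of 40 sorted-cell libraries was isolated and amplified (NuGEN Ovation V2) and sequenced on an Illumina instrument. HTSstation was used by the authors to count reads over Ensembl genes after alignment to mm10 with Bowtie 2. The submitters' processing notes also name bcl2fastq and limma; versions, annotation release, strand and the treatment of reads with several matches are not given in the sources used here. The deposited estimated counts, 99.6% of whose nonzero values are not whole, were rounded. The deposited RPKM values, which the authors scaled by gene length and depth, were used as they stand for levels. Symbols were matched to 45143 of 45706 gene identifiers through GENCODE M21. The strain label of the tumor-bearing mice counts up from sample to sample and was read as C57Bl6/Sv129 throughout.

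Comparisons used edgeR 4.0.16 in R 4.3.3 (filterByExpr, TMM, robust quasi-likelihood test, libraries of the groups compared only), with Benjamini-Hochberg adjustment over all genes tested, and genes were called where the adjusted p was below 0.05 and the log2 fold change over 1.5 in size. This edgeR quasi-likelihood test gave every adjusted p quoted unless another tool is named. The fits were tested on simulated data. Alternatives were limma-voom and limma on log2(RPKM + 1) and log2(RPKM + 0.1) (limma 3.58.1), DESeq2 1.42.0, a count minimum of 10 in each library or none, all 40 libraries in 1 fit, no mitochondrial genes, a replicate block, and leaving out libraries. The members, the pathway and marker lists and the tests were chosen with earlier results of these data known. Every member was named in every comparison, and of the pathway lists the genes that were called, apart from a result that is not reported here. Depth was 10717873 to 38002939 counts per library, and replicates, not counting error, limit the precision. In no comparison were all same-numbered libraries of both groups correlated above 0.1 in their deviations from the group means (r of -0.15 to 0.25 over all pairs), and those numbers mostly join different animals, so the replicate block is an alternative only. Animals were read from the sample titles.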

Additional observations from a re-analysis of the deposited data

Results flagged for a closer look

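In 3 of the 70 sets of 4 libraries examined, 1 library stood far from the other 3 of its group. H2-Eb1 was at 2.72 RPKM in tumor neutrophil library 1, against at most 0.679 RPKM in the other tumor neutrophil libraries, and this library also held the most Epcam, 33.9 RPKM. H2-DMa was at 1.33 RPKM in healthy epithelial library 2, against at most 0.161 RPKM in the others. Ciita was at 0.0111 RPKM in library 4 of blood neutrophils from tumor-bearing mice, against at most 0.00114 RPKM in the others. Chance flags about 1 in 20 such sets.

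The interaction test of edgeR between cell types called 4 values. The blood-to-tumor change of Ciita in monocytes minus that in neutrophils was -5.32 on the log2 scale, but Ciita had at most 24.7 counts in a neutrophil library, failed the filter there, and lost the call without 13 of the 16 libraries. The change from healthy colon to tumor in epithelial cells minus that in stromal cells was -6.34 for Ciita, -3.90 for H2-Ab1 and -3.67 for Cd74.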

How the results depend on the processing

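Under the alternatives other than leaving out 1 library, no called fold change of a member changed sign. Of the fold changes of members, 701 kept their direction and side of the threshold, 63 came to pass it, 47 no longer passed it and 25 changed sign, all of the last uncalled in the main test. The cause was not tested where a value below differs from the main one, except that fewer members were tested with at least 10 counts in every library (1 in both comparisons named).

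The number of members called changed as follows. In tumor against blood neutrophils (4) it was 1 with at least 10 counts in every library and 2 with limma on log2(RPKM + 1). In tumor against blood monocytes (0) DESeq2 called 1, as it did in blood neutrophils of tumor-bearing against healthy mice (0). In tumor against healthy epithelial cells (3) it was 1 with limma-voom, with no filter, with log2(RPKM + 0.1) and with the replicate block, 0 with log2(RPKM + 1) and 6 with DESeq2. In stromal cells (0) it was 1 without tumor stromal libraries 1 and 2. In tumor monocytes against tumor neutrophils (4) it was 7 with DESeq2 and with log2(RPKM + 0.1), and in healthy blood monocytes against neutrophils (7) it was 4 with limma-voom and 1 with at least 10 counts. In healthy epithelial against stromal cells (0) it was 1 with limma-voom and with the replicate block and 3 with log2(RPKM + 0.1). In tumor epithelial against stromal cells (0) it was 7 with DESeq2, with all 40 libraries and without tumor stromal libraries 1 and 2, 2 with log2(RPKM + 1) and 4 with log2(RPKM + 0.1). The difference between monocytes and neutrophils (1) gave 0 with limma-voom, no filter, no mitochondrial genes, both pseudocounts and the replicate block, 3 with DESeq2 and 2 with all 40 libraries. The difference between epithelial and stromal cells (3) gave 0 with limma-voom and both pseudocounts and 6 with DESeq2.

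The uncalled values that changed sign were these. In tumor against blood neutrophils H2-DMa was at -0.50 with limma-voom. In tumor against blood monocytes Cd74 was at -0.05 with no filter and -0.03 with all 40 libraries, and H2-DMa at 0.01 with the replicate block. In blood neutrophils of tumor-bearing against healthy mice, without healthy libraries 1 and 2, an alternative chosen after seeing the data, H2-Aa was at 0.45, H2-DMa at 1.05 and Cd74 at 0.21. In blood monocytes, with limma-voom, log2(RPKM + 1), log2(RPKM + 0.1) and the replicate block, H2-DMa was at -0.13, -0.24, -0.27 and -0.17 and Cd74 at -0.66, -0.77, -0.80 and -0.51. In stromal cells H2-DMa was at -0.22, -0.19 and -0.53 with the first 3 of these, and in healthy epithelial against stromal cells H2-DMb1 was at -0.66, -0.17 and -0.72 and Ciita at -0.08 with log2(RPKM + 0.1). In the difference between monocytes and neutrophils H2-DMa was at 0.55 with limma-voom, and H2-Aa and H2-Eb1 at 0.32 and 0.40 with log2(RPKM + 1).

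With each library left out in turn, the number called ran from 3 to 5 in tumor against blood neutrophils, 0 to 1 in tumor against blood monocytes, 0 to 1 in blood neutrophils, 0 to 0 in blood monocytes and in stromal cells, 1 to 7 in epithelial cells, 2 to 5 in tumor monocytes against neutrophils, 5 to 7 in healthy blood monocytes against neutrophils, 0 to 1 in healthy epithelial against stromal cells, 0 to 6 in tumor epithelial against stromal cells, 0 to 2 in the difference between monocytes and neutrophils and 1 to 6 in that between epithelial and stromal cells. Uncalled values that changed sign were H2-DMa in tumor against blood neutrophils (-0.95 to 1.33), Cd74 (-0.40 to 1.71) and H2-DMa (-0.57 to 0.48) in tumor against blood monocytes, H2-DMa (-0.57 to 0.32), Cd74 (-1.29 to 0.77) and Ciita (-0.58 to 0.71) in blood monocytes, H2-DMa in stromal cells (-0.28 to 0.58), H2-Aa (-0.73 to 0.21), H2-Ab1 (-0.67 to 0.16), Cd74 (-0.77 to 0.09) and H2-DMb1 (-0.07 to 0.97) in healthy epithelial against stromal cells, and H2-DMa in the difference between monocytes and neutrophils (-1.39 to 0.84).

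The replicate numbers mostly join different animals, and where they do, a call lost under the replicate block is no sign of a weaker effect. In tumor monocytes against tumor neutrophils most numbers join the same animal, so there this block is close to the animal block. No replicate block was fitted with tumor stromal cells, whose label repeats a number. With the animal of the titles as a block, chosen after seeing the data, 3 members were called in tumor monocytes against neutrophils, 6 in healthy blood monocytes against neutrophils and 7 in tumor epithelial against stromal cells. The other comparisons share at most 1 animal and were not fitted this way. Members that failed the filter were not tested.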
